A study of Rattus norvegicus with 56 samples.

Results

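The hippocampus of aged-unimpaired (AU) rats was compared between animals that received intermittent theta burst stimulation (iTBS) and animals that received a sham procedure. The members were the first arrays whose titles place them in AU_iTBS_HIPP, 5 animals, or AU_Sham_HIPP, 4 animals, which made 9 of the 24 first hippocampus arrays and 9 of the 56 arrays in all. Every animal was a male Long-Evans rat of 26 to 27 months, and the labels tie the word unimpaired to a water maze score on par with young rats, not to a genotype. The study's methods describe the maze for the animals of another experiment, so that testing of these 9 rests on the labels. The treatment was a single session of iTBS, which gives trains of short bursts of magnetic pulses through the skull, with the coil 8 mm above the skull and aimed at the corpus callosum. Sham animals had the coil away from the head. All 9 animals were held under light isoflurane with dexmedetomidine at 0.03 mg/kg, a sedative that was then reversed, so the controls carry the sedation too. The dorsal hippocampus under the coil was taken 48 h after stimulation, and RNA of each animal was hybridized to its own array with 1 dye. The methods give a smaller number of aged animals than the titles do. The titles were followed here, and the descriptions name a different animal for each of the 9 arrays. Each animal therefore contributed 1 value per probe, and the spread between animals and the spread between arrays cannot be told apart. Young rats of 6 to 7 months (Y, 4 sham and 4 iTBS) served below for comparison, with dexmedetomidine at 0.035 mg/kg. The sedative dose thus differed between AU and Y animals together with age. Also compared were aged-impaired rats of 26 to 27 months (AI, 4 sham and 3 iTBS), with dexmedetomidine at 0.03 mg/kg. The last comparison was with the parietal cortex of the same 9 AU animals.

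The hippocampus stores spatial and episodic memories, and its principal cells pass excitation from the dentate gyrus through CA3 to CA1 by way of glutamate. Theta burst patterns imitate the firing of hippocampal neurons during exploration and are a classical way to produce long-term potentiation in slices, a lasting gain in synaptic strength that needs NMDA receptors. Strong neuronal activity switches on immediate early genes such as Fos, Arc and Egr1 within minutes, and these return to rest within hours, well before the tissue was taken here. Aged brain also shows more activity of microglia, the resident macrophages, and of genes that interferon switches on.

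All levels below are log2 processed signals, z-scored on each array and multiplied by the mean standard deviation (SD) of the arrays, 4.08, so that 0 is the mean of an array and a step of 1 is a doubling of the signal. A difference is AU_iTBS minus AU_Sham on that log2 scale. The labelled tissue was checked against markers of hippocampal fields. Klk8, a protease gene of hippocampal neurons, had a median level of 6.14 against -2.19 in the cortex of the same animals, and C1ql2, a dentate gyrus gene, had 5.43 against 0.81. Of 7 hippocampal markers, 6 were well above background on all 9 arrays. Prox1, alone of the 7, had a lower median than in cortex, 6.49 against 6.81. All 7 neuronal, 6 microglial, 6 oligodendrocyte and 6 astrocyte markers were well above background on all 9 arrays. Of 4 T-cell markers 3 were well above background on all 9 arrays, and Cd8a was so on none. Choroid plexus tissue varied most, with a mean level of its markers of 0.17 to 1.33 over the sham animals and -0.09 to 3.68 over the iTBS animals, the highest being AU_iTBS 2.

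The share of probes well above background was 64.6% ± 1.36 (SD, n = 4) in sham and 65% ± 2.63 (SD, n = 5) in iTBS hippocampus, a difference that did not pass a two-sided exact permutation test (p = 0.825, smallest possible 0.0159). A pair of sham animals stood apart from each other. AU_Sham 4 lay farthest of all 24 hippocampus arrays from the others (median absolute distance 0.294), and AU_Sham 1 had rank 4 (0.21). Between AU_Sham 1 and AU_Sham 4, 5285 probes (17.4%) differed by more than 1, against 2.62% to 10.8% in the other pairs within a group. AU_Sham 1 was the AU sham animal scanned on a later day, together with AU_iTBS 1 and 2. AU_iTBS 3 was scanned alone on another day, and AU_Sham 2, 3 and 4 were scanned with AU_iTBS 4 and 5 on the first day, on another slide. Results that rest on AU_Sham 1 or AU_Sham 4 are therefore given with and without them.

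No probe passed the test for a difference between stimulated and sham AU hippocampus. In the limma fit over the 24 hippocampus arrays, 0 of 30408 probes (0%) reached an adjusted p under 0.05, and the smallest adjusted p was 0.52. At an unadjusted p under 0.05 there were 655 probes (2.15%), 314 higher (1.03%) and 341 lower (1.12%) in iTBS animals. The median difference over all probes was -0.00, and 49.6% of probes were higher. The precision given next is that of a fit with no term for slide or scan batch. The median standard error (SE) was 0.17, and the 95% interval of the difference lay within ±1, a doubling or halving, for 89.8% of probes and within ±0.5 for 54.8%. The levels of all 4 sham animals lay on one side of all 5 iTBS animals for 128 of 30359 probes (0.422%), 48 higher and 80 lower. Without AU_Sham 1 the count at an unadjusted p under 0.05 was 3194 (10.5%), with a smallest adjusted p of 0.0701, and without AU_Sham 4 it was 458 (1.51%). No leave-one-out fit called a probe. The sham and iTBS arrays of the first day lay on different slides. Among the animals scanned on that day alone 1839 probes (6.05%) were at an unadjusted p under 0.05 and none was called (smallest adjusted p = 0.0799). Among the later-scanned animals, where AU_Sham 1 was the lone AU sham animal against AU_iTBS 1, 2 and 3, there were 2587 (8.51%) and 72 (0.237%) were called.

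**Figure D1:**
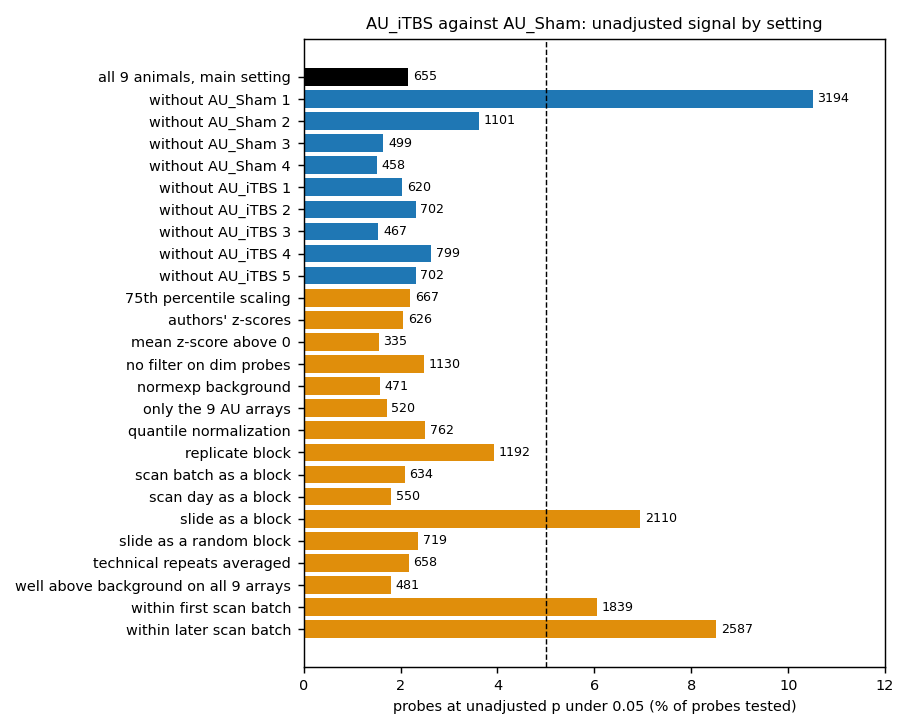
Share of tested probes at an unadjusted p under 0.05 for AU_iTBS against AU_Sham hippocampus (horizontal axis, %), with the number of probes beside each bar, for all 9 animals (black), with 1 animal left out (blue) and under other processing (orange). The dashed line marks 5%. The bar without AU_Sham 1, 3194 probes, is the longest, and the bar for all 9 animals, 655 probes, lies below the line.

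The probe of smallest p was one for Tex12 (NM_001191106), a gene of the synaptonemal complex of meiotic cells, named here after its value was seen. Its sham levels were -2.76, -0.34, -3.17 and -0.76 and its iTBS levels -4.87, -4.73, -3.96, -5.12 and -5.26. It was well above background on 3 of 4 sham arrays and 0 of 5 iTBS arrays, so that the signal in sham was at least 2.52-fold higher, and the adjusted p was 0.52. Its signal in every animal lay below the mean of the array.

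Beyond Tex12, the 8 genes of smallest p in each direction were examined, taking probes well above background on all arrays of the group with the higher mean. None passed the adjusted threshold (limma adjusted p = 1 for each, unadjusted p 0.00259 to 0.00743 for the 8 higher and 1.20e-04 to 0.00431 for the 8 lower). In 10 of the 16 the mean signal lay below the mean of the array, against 28.8% of tested probes. Their sham and iTBS animals did not overlap in 5 of the 16, beside 0.422% of all probes, and as the genes were chosen for a small p nothing is read from that count.

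Among the 8 genes with higher values in iTBS animals, Fabp5 (NM_145878), which encodes a fatty acid binding protein of neural and glial cells, was the most strongly expressed. Its levels were 7.87, 8.32, 8.15 and 7.58 in sham and 8.36, 8.44, 8.49, 8.40 and 8.20 in iTBS animals. The difference was 0.40 ± 0.13 (SE), 4 of 5 iTBS animals lay above every sham animal, and another Fabp5 probe gave 0.31 ± 0.11. Mphosph6 (NM_001129881), an RNA exosome cofactor that takes part in ribosomal RNA maturation, had 5.31, 5.09, 5.11 and 5.25 in sham and 5.56, 5.86, 5.18, 5.55 and 5.77 in iTBS animals. AU_iTBS 3 was the animal within the sham range. Trib3 (NM_144755), a pseudokinase gene induced by cellular stress, had -2.07, -2.58, -2.84 and -2.29 in sham and -2.07, -2.12, -1.82, -1.72 and -1.79 in iTBS animals, a difference of 0.54 ± 0.18. Loxl2 (NM_001106047), an enzyme that cross-links collagen, had a mean of -1.17 in sham and -0.72 in iTBS animals, a difference of 0.45 ± 0.13. Samd5 (NM_001108901) had -0.09, 0.34, -0.34 and 0.23 in sham and 0.27, 0.65, 0.61, 0.70 and 0.53 in iTBS animals. The remaining 3 had low signals. The olfactory receptor genes Or2av9 and Or4f61b differed by 0.53 ± 0.16 and 0.37 ± 0.12, and they belong to a large family of similar sequences, so that their probes are uncertain. Acr, the sperm protease acrosin, differed by 0.45 ± 0.15, and another of its probes by -1.75.

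Of the 8 genes with lower values in iTBS animals, Prdx6 (NM_053576), an antioxidant enzyme of astrocytes and other cells, was the most strongly expressed. Its levels were 6.60, 6.60, 6.76 and 6.89 in sham and 6.24, 6.62, 6.23, 6.33 and 6.38 in iTBS animals, a difference of -0.35 ± 0.10, with AU_iTBS 2 inside the sham range. Epm2a (NM_001276762) encodes laforin, a glycogen phosphatase whose loss causes Lafora epilepsy. Its sham levels were -1.72, -0.40, -0.77 and -0.64 and its iTBS levels -1.91, -2.77, -1.87, -1.75 and -2.04. The groups did not overlap, with AU_Sham 1 next to AU_iTBS 4, and the difference was -1.19 ± 0.29. Cyct (NM_012840), the testis form of cytochrome c, had -2.81, -2.37, 0.08 and -1.65 in sham animals and was well above background in no iTBS animal, which gave a signal at least 2.65-fold higher in sham. Tpm2 (NM_001024345), a tropomyosin of muscle and other contractile cells, had 2.04, 2.16, 2.35 and 2.38 in sham and 1.79, 1.82, 1.20, 0.63 and 2.26 in iTBS animals. Its difference was -0.70 ± 0.22, and its other probes gave -0.62 and -0.14. Micb (NM_001017468), an MHC class I related gene, had -0.41, -0.98, -0.20 and -1.47 in sham and -1.79, -1.65, -1.59, -1.77 and -1.87 in iTBS animals. Its groups did not overlap and the difference was -0.97 ± 0.29. Or2b11, another olfactory receptor gene, differed by -0.87 ± 0.25 without overlap. Adgrg5, an adhesion G-protein coupled receptor, and Slc22a4, an organic cation transporter, differed by -1.56 ± 0.40 and -1.84 ± 0.53, whereas a second probe of each gave 0.00 and 0.15.

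**Figure D2:**
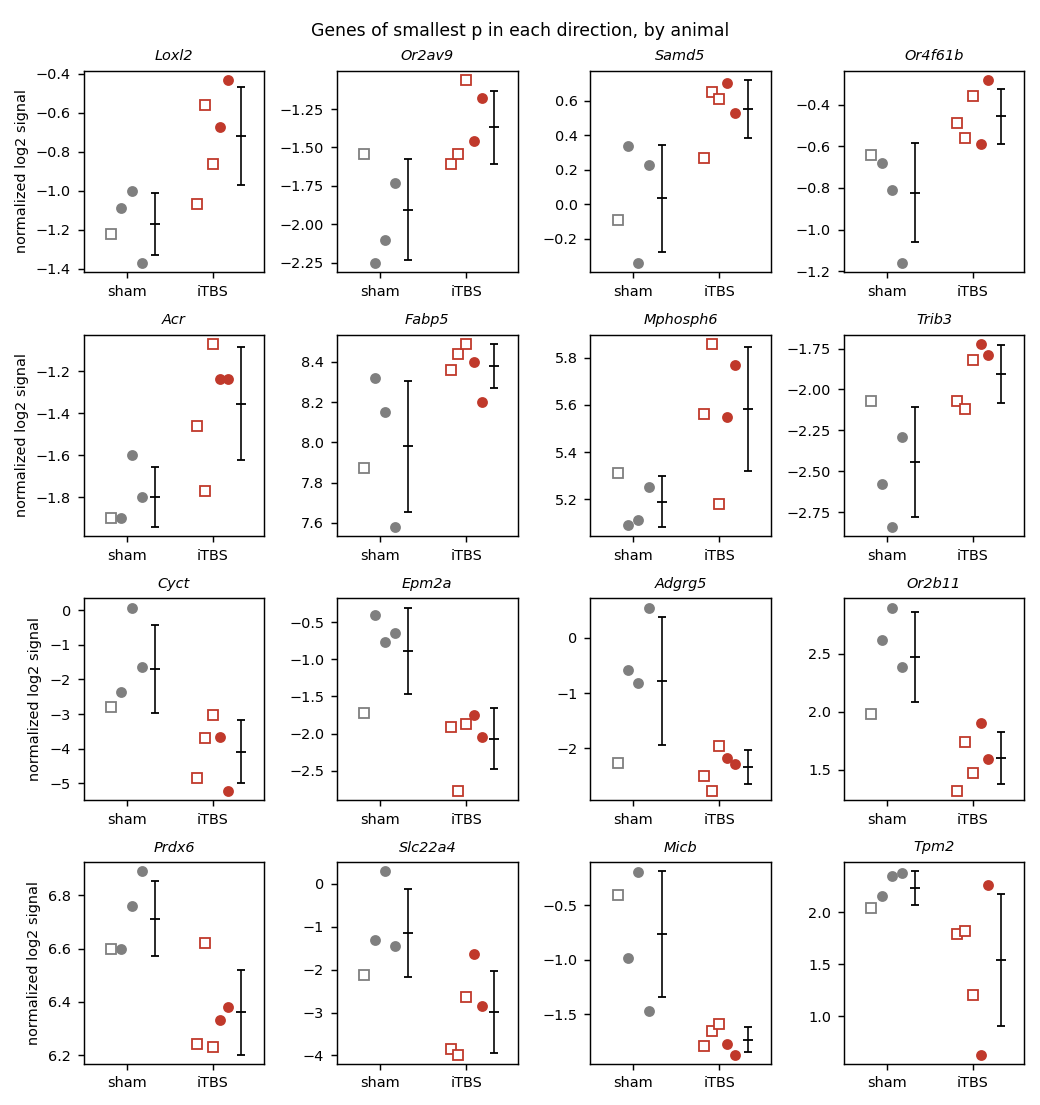
Normalized log2 signal (vertical axis, 0 is the mean of the array) of the 16 genes of smallest p in each animal, AU_Sham in grey and AU_iTBS in red, with the mean and SD in black. Filled circles are animals scanned on the first day and open squares those scanned later. Sham and iTBS animals do not overlap in Or4f61b, Cyct, Epm2a, Or2b11 and Micb.

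The genes that interferon switches on were higher in most members of their list, by small amounts. Of 35 tested interferon-induced genes, 29 were higher in iTBS animals (82.9%, beside 49.6% of all probes), the median difference was 0.19, and 3 were at an unadjusted p under 0.05, all higher (beside 1.03% of all probes). Isg15 (NM_001106700), a ubiquitin-like antiviral protein, had levels of 1.34, 1.85, 1.63 and 1.48 in sham and 2.02, 2.76, 1.75, 2.12 and 1.94 in iTBS animals. The difference was 0.54 ± 0.23, a ratio of 1.46, and AU_iTBS 3 alone lay inside the sham range. Ifi44 (NM_001107729), a cytoplasmic antiviral protein, had 2.81, 2.60, 2.45 and 2.24 in sham and 3.04, 3.39, 3.11, 2.73 and 2.57 in iTBS animals, a difference of 0.44 ± 0.19. Ifit2 (NM_001024753), an antiviral protein that binds viral RNA, had 1.34, 0.94, 0.80 and 0.35 in sham and 1.16, 1.47, 1.35, 1.21 and 1.26 in iTBS animals. For Ifit2 the iTBS animals were close together and the sham animals were spread. All 3 had an adjusted p of 1 in limma. The transcription factors of the pathway that are reported here differed by -0.01 (Stat2), 0.01 (Irf9), 0.16 (Irf7) and 0.16 (Irf1), none at an unadjusted p under 0.05. The guanylate binding proteins Gbp2 and Gbp5 differed by 0.42 and 0.37, Rsad2, which encodes viperin, by 0.59, and Ifi27 by -0.52.

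The level of the interferon-induced list was uneven among the stimulated animals. Its median, after subtraction of each gene's mean over the 9 animals, was 0.38 in AU_iTBS 2 and 0.17 in AU_iTBS 1, and -0.09, -0.01 and -0.12 in AU_iTBS 3, 4 and 5. In sham animals it was -0.01, -0.13, -0.10 and -0.17. AU_iTBS 1 and 2 thus stood above all sham animals, and AU_iTBS 3, 4 and 5 lay among them. Without AU_iTBS 2 the median difference of the list was 0.12, and without AU_Sham 4 it was 0.17. None of the 35 genes was at an unadjusted p under 0.05 without AU_Sham 4, beside 1.51% of all probes. The median difference was 0.10 among first-day animals and 0.23 among later-scanned animals. AU_iTBS 1 and 2 shared slide and scanner with AU_Sham 1, and AU_iTBS 2 also had the highest choroid plexus level. Their part in the interferon values was not tested.

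Promoter sequences are shown for 3 interferon-induced genes with differences of 0.37 to 0.44, to show the element by which interferon acts. It is bound by factors that interferon activates and has a core of TTTC, a gap of 2 bases of any kind, and TTTC again. The 250 bases before the start site were taken from the RefSeq promoter table (build GRCr8), where 26 of the 35 tested genes had an entry and Isg15 and Ifit2 had none. The core, searched on both strands, was found in 16 of those 26 (61.5%) and in 902 of all 27457 promoters of that length (3.29%). Letters in capitals mark it, and the last base lies next to the start site.
Ifi44, chr2:243303841-243304090, minus strand: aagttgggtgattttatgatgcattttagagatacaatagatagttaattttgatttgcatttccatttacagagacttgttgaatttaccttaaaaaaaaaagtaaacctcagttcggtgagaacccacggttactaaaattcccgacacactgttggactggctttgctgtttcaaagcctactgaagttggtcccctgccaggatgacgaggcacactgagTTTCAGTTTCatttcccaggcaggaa
Gbp5, chr2:233910749-233910998, plus strand: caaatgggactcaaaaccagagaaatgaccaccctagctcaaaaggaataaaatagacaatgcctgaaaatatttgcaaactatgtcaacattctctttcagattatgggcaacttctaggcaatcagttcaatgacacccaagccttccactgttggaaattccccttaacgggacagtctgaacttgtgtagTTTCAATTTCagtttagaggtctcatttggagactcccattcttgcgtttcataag
Gbp2, chr2:234005477-234005726, plus strand: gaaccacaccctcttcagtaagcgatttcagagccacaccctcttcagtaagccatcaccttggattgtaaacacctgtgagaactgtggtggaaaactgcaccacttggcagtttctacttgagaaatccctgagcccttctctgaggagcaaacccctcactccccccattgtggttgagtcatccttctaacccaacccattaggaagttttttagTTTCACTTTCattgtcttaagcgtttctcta
The core began 26 bases before the start site in Ifi44, 56 in Gbp5 and 31 in Gbp2. Of the 16 genes with the core 13 were higher in iTBS animals (median difference 0.20), and of the 10 without it 7 were higher (median 0.12).

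The effect of iTBS on interferon-induced genes was more positive in AU than in young animals in 31 of 35 members. The AU effect of iTBS minus the Y effect was at an unadjusted p under 0.05 for 11 of 35 interferon-induced genes. All 11 were more positive in AU, beside 2.26% of all probes in that direction. The median difference of effects was 0.51, beside 0.02 over all probes. No gene passed the adjusted threshold in this comparison (0 of 30408 probes, 0%; smallest adjusted p of the list 0.847). In young animals 6 of 35 genes were higher in iTBS animals and the median was -0.28, and in AI animals 30 of 35 were higher with a median of 0.16. Isg15 ran from 1.23 to 1.56 in Y_Sham and from 0.75 to 1.20 in Y_iTBS animals (unadjusted p = 0.0977 in limma). The effect in AU minus that in Y was 0.96 ± 0.33 for Isg15, 0.95 ± 0.27 for Ifi44 and 0.71 ± 0.27 for Ifit2 (unadjusted p = 0.00834, 0.00231 and 0.0148, adjusted p = 0.847 for each in limma). Ifi44 had 2.73, 2.80, 2.77 and 2.44 in Y_Sham and 2.58, 2.13, 2.05 and 1.93 in Y_iTBS animals. Y_Sham 1 and 2 and Y_iTBS 1 were scanned later, and the other young animals on the first day. The value of 2.58 was that of Y_iTBS 1. Sham and iTBS animals were thus split over the scan batches differently in Y than in AU, and a fit with the batch as a block is given below. Leaving out any 1 of the 9 AU animals gave 6 to 15 of the 35 genes, with medians of 0.40 to 0.56. The lowest count, 6 genes beside 1.55% of all probes, came without AU_Sham 4, and the highest, 15 genes beside 8.9%, without AU_Sham 1. With the scan batch as a block the count was 8 genes, beside 1.43%, and the median was 0.41. Under scaling to the 75th percentile it was 7 genes, beside 1.45%. Against AI animals 0 of 35 genes were more positive in AU at an unadjusted p under 0.05, beside 0.901% of all probes, and 1 was less so, beside 0.635%.

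**Figure D3:**
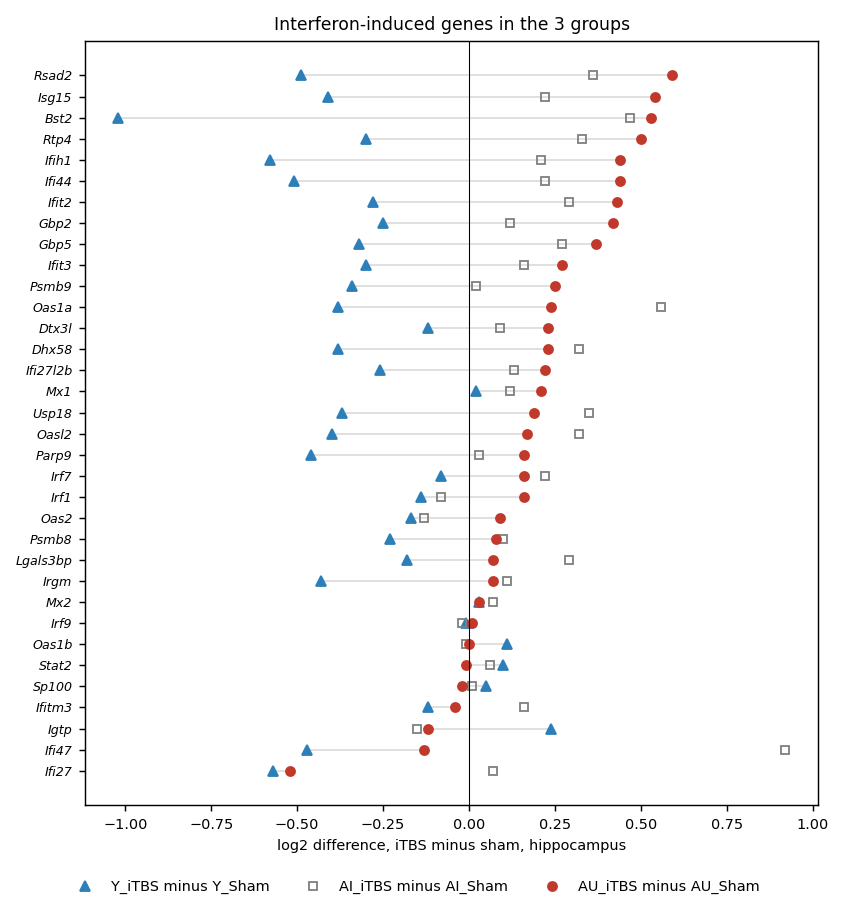
Difference between iTBS and sham hippocampus (horizontal axis, log2) for the tested interferon-induced genes that are shown in AU (red circles), Y (blue triangles) and AI animals (open squares), ordered by the AU value. Most red circles lie to the right of 0 and blue triangles do so for 6 genes. No single gene passed the adjusted threshold in any of the 3 groups.

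MHC class II genes serve macrophages and microglia in presenting antigen. Of 9 tested members 8 were higher in iTBS animals (median 0.24), and none was at an unadjusted p under 0.05. The median was 0.46 without AU_Sham 1, 0.47 without AU_Sham 4 and 0.10 without AU_Sham 2. Without AU_Sham 1, 2 were higher and 1 lower at an unadjusted p under 0.05, beside 5.27% and 5.24% of all probes. RT1-Da (NM_001008847), the alpha chain of the RT1-D molecule, had levels of 2.69, 1.14, 0.80 and 1.63 in sham and 2.94, 3.28, 2.55, 0.32 and 1.93 in iTBS animals. The 4 animals scanned later, AU_Sham 1 and AU_iTBS 1, 2 and 3, held the 4 highest values. Cd74, the invariant chain, had 4.32, 3.41, 3.13 and 4.75 in sham and 4.97, 4.98, 4.30, 2.44 and 4.04 in iTBS animals, so that AU_Sham 4 was also high. RT1-Db2 differed by 0.59 ± 0.31 and RT1-DMb by -0.26 ± 0.13. The median of the list was 0.01 among first-day animals and 0.15 among later-scanned ones, and RT1 genes are similar in sequence, so that single members are uncertain. Of 20 genes of MHC class I and antigen presentation 13 were higher (median 0.07), with Psmb9, an immunoproteasome subunit, at 0.25 ± 0.17 and Tap1, a peptide transporter subunit, at 0.28 ± 0.20.

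Microglial and macrophage genes were higher in 25 of 30 members (83.3%), with a median of 0.13. Clec7a (NM_001173386), the receptor dectin-1 of activated microglia, was at an unadjusted p under 0.05 and had levels of -0.88, -1.84, -1.88 and -1.55 in sham and -0.88, -0.72, -0.82, -1.27 and -0.38 in iTBS animals. Its difference was 0.72 ± 0.30 (unadjusted p = 0.0242, limma adjusted p = 1), and AU_Sham 1 again lay with the iTBS animals. Genes of resting microglia differed by 0.22 (Cx3cr1), 0.16 (P2ry12), 0.10 (Tmem119) and -0.11 (Csf1r), and Gpnmb, a glycoprotein of lipid-laden macrophages, by 0.29 ± 0.15. The median of the list was 0.04 without AU_Sham 4, 0.19 among first-day animals and -0.01 among later-scanned ones. In bulk tissue more cells of a type and more RNA per cell cannot be told apart.

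Among 25 tested complement genes 17 were higher (median 0.06) with Cfi, a protease that inactivates C3b and C4b, at 0.75 ± 0.39 and Serping1, the C1 inhibitor, at 0.40 ± 0.27. Of 30 tested chemokine and receptor genes 17 were higher (median 0.07). Cxcl10 (NM_139089), an interferon-induced attractant of T cells, had -0.47, 0.04, -0.63 and -0.94 in sham and 0.27, 3.22, 0.42, -0.23 and 0.31 in iTBS animals, a difference of 1.30 ± 0.58 (unadjusted p = 0.0373, limma adjusted p = 1) that was 0.69 without AU_iTBS 2. Of 12 Toll-like receptor genes, 8 were higher (median 0.09). Tlr9, the receptor for unmethylated DNA, differed by 0.27 ± 0.11 and Cd180, a relative of Tlr4, by -0.43 ± 0.20, both at an unadjusted p under 0.05 and adjusted p of 1 in limma. The list medians of cytokines and their receptors (15 of 22 higher) and of T, NK and B cell genes (5 of 11 higher) were 0.06 and -0.01. Tgfb1, an anti-inflammatory cytokine, had 0.13 as its sham mean and -0.38 as its iTBS mean, a difference of -0.51 ± 0.27.

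Genes of excitatory synapses gave different counts with and without AU_Sham 1. Of 28 tested ionotropic glutamate receptor genes 16 were lower in iTBS animals (median -0.13), and none was at an unadjusted p under 0.05. Grin1 (NM_017010), the obligate subunit of NMDA receptors, had levels of 6.64, 7.29, 7.51 and 7.81 in sham and 7.15, 6.75, 7.00, 7.10 and 7.06 in iTBS animals. AU_Sham 1 was the lowest of all 9 animals, and the other 3 sham animals were higher than every iTBS animal. Grin2b (NM_012574), the NMDA subunit typical of young synapses, had 0.22, 1.11, 1.42 and 2.06 in sham and 0.73, 0.60, 0.45, 1.11 and 1.06 in iTBS animals. The AMPA receptor subunits differed by -0.24 (Gria1), 0.08 (Gria2), 0.09 (Gria3) and 0.14 (Gria4). Of their auxiliary proteins, Cacng2, or stargazin, differed by -0.24 ± 0.13, and Grid1, a delta receptor, by -0.48 ± 0.26. Without AU_Sham 1, 8 of the 28 genes were lower and 1 higher at an unadjusted p under 0.05, beside 5.24% and 5.27% of all probes, with Grin1 at -0.52, Grin2b at -0.74, Gria1 at -0.49 and Cacng2 at -0.38. Without AU_Sham 4 none of the 28 was lower or higher at that p, beside 1.51% of all probes. The median of the list was -0.10 among first-day animals and 0.20 among later-scanned animals, where AU_Sham 1 was the lone control. With the slide as a block the median was -0.01 and with the scan batch as a block -0.08. AU_Sham 1 was the only AU sham animal on its slide, which also held sham animals of the other groups.

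The same animal stood apart in the other synaptic lists. For the metabotropic glutamate receptors and plasticity kinases 20 of 28 genes were lower (median -0.08). Homer3 (XM_006252890), a scaffold of metabotropic receptors, was at an unadjusted p under 0.05, with 6.73, 7.01, 7.61 and 7.28 in sham and 6.65, 6.94, 6.55, 7.05 and 6.91 in iTBS animals and a difference of -0.33 ± 0.15. Camk2a, the kinase that long-term potentiation depends on, had 3.68, 3.94, 4.26 and 5.03 in sham and 4.28, 3.97, 3.71, 3.82 and 3.94 in iTBS animals. Dlg4, the postsynaptic scaffold PSD-95, differed by -0.43 ± 0.22. Of 38 genes of synaptic vesicles and release 25 were lower (median -0.06), with the vesicular glutamate transporters Slc17a7 at -0.34 ± 0.18 and Slc17a6 at 0.65 ± 0.35. Slc17a6 is a thalamic and subcortical gene, and its sham levels ran from 2.58 to 4.91. Of 26 genes of GABA receptors and synthesis 17 were lower (median -0.07), including Slc6a11, a GABA transporter, at -0.32 ± 0.17. Without AU_Sham 1 the medians were -0.13 for the metabotropic and plasticity list, -0.16 for the vesicle list and -0.11 for the GABA list. Genes lower at an unadjusted p under 0.05 were then 6 of 28, 3 of 38 and 3 of 26, beside 5.24% of all probes. Within the later scan batch the medians were 0.09, 0.17 and 0.06. The median level of the vesicle list was -0.20 in AU_Sham 1 against 0.13 to 0.17 in the other sham animals and -0.08 to 0.14 in iTBS animals. For the GABA list it was -0.18 in AU_Sham 1, 0.07 to 0.10 in the other sham animals and -0.12 to 0.08 in iTBS animals.

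Ion channel genes had list medians near 0 with all animals. Of 52 potassium channel genes 27 were higher (median 0.01) and 1 was lower at an unadjusted p under 0.05, beside 1.12% of all probes. Without AU_Sham 1 the counts at that p were 5 higher and 5 lower, beside 5.27% and 5.24%. Of 29 calcium and sodium channel genes 19 were lower (median -0.05), with Cacna1e at -0.32 ± 0.22 and Cacnb3 at -0.27 ± 0.19. Without AU_Sham 1, 5 of the 29 were lower at an unadjusted p under 0.05, beside 5.24% of all probes, and the median was -0.09. It was -0.20 among first-day and 0.13 among later-scanned animals. Without AU_Sham 4 the Cacna1e difference was 0.01.

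No activity-regulated gene passed the test at this time after stimulation. Of 44 tested immediate early and activity-regulated genes 21 were higher and 23 lower, the median was -0.01, the differences ran from -0.38 to 0.34, and none was at an unadjusted p under 0.05. Fos (NM_022197), which forms the AP-1 transcription factor, had 0.97, 0.25, -0.22 and -0.45 in sham and 0.16, 0.01, 0.87, 0.52 and 0.26 in iTBS animals. Arc (NM_019361), which removes AMPA receptors from synapses, had 6.59, 7.17, 6.71 and 7.52 in sham and 6.94, 6.35, 6.80, 6.84 and 6.88 in iTBS animals. Both groups overlapped for each. Egr1 differed by 0.05, Nr4a1 by -0.11, Egr3 by -0.29 ± 0.18, and Npas4, well above background in 1 sham and 2 iTBS animals, by 0.21. Bdnf (NM_012513), the neurotrophin most often tied to stimulation, had 3.55, 3.44, 4.02 and 2.26 in sham and 3.20, 3.30, 3.44, 3.48 and 3.31 in iTBS animals. Its iTBS animals were closer together than its sham animals and the difference was 0.03. Of the 23 tested neurotrophin and receptor genes 14 were higher (median 0.03), with Ntrk2, the Bdnf receptor, at -0.00 and Ntf4 at -1.07 ± 0.53, a gene well above background in 3 sham and 1 iTBS animals.

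**Figure D4:**
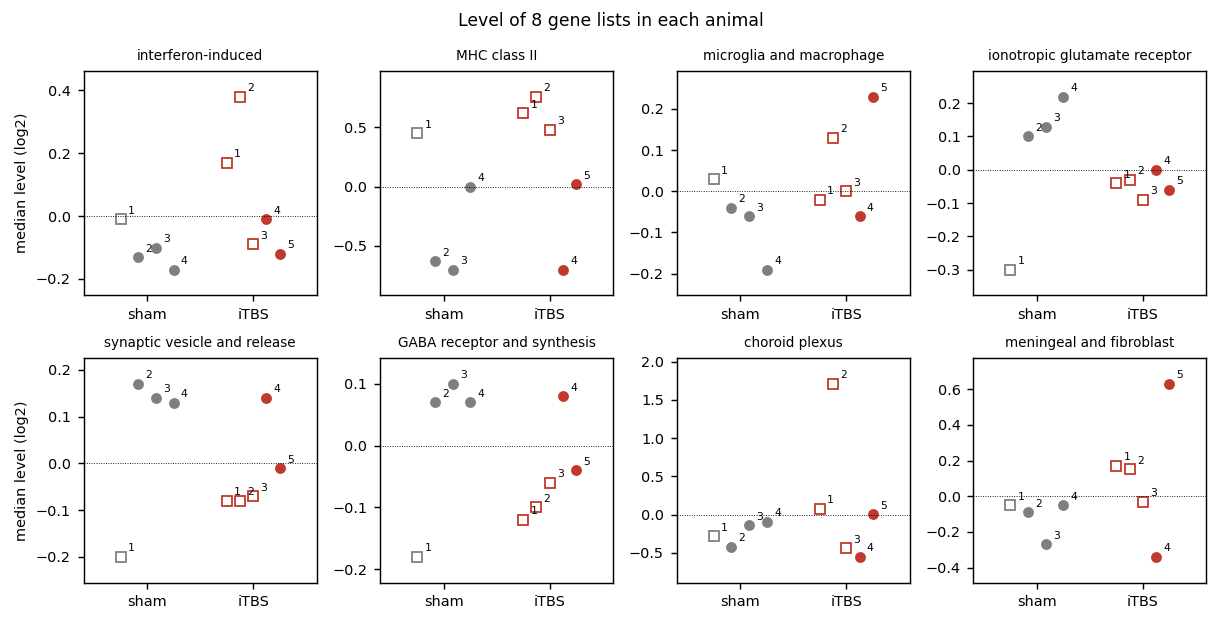
Median level of 8 gene lists in each AU animal (vertical axis, log2, after subtraction of each gene's mean over the 9 animals), sham in grey and iTBS in red, with animal numbers. Filled circles were scanned on the first day and open squares later. AU_Sham 1 lies below the other sham animals in the 3 synaptic lists, the later-scanned animals hold the highest MHC class II levels, and AU_iTBS 2 has the highest choroid plexus level, 1.71.

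Genes of newborn and dividing cells were higher in 17 of 24 members (median 0.14), in a region where the dentate gyrus keeps neural stem cells. Ccna2 (NM_053702), a cyclin of the S and G2 phases, was at an unadjusted p under 0.05, with 0.31, -0.68, -0.25 and -1.45 in sham and 0.54, 0.14, 0.85, 0.24 and -0.48 in iTBS animals and a difference of 0.77 ± 0.33. Cdk1, its mitotic kinase partner, differed by 0.38 ± 0.25. Without AU_Sham 1, 6 of the 24 genes were higher at an unadjusted p under 0.05, beside 5.27% of all probes. Without AU_Sham 4 none of the 24 was higher at that p, beside 0.77% of all probes. The median was 0.09 among first-day animals and -0.06 among later-scanned ones. Interneuron and neuropeptide genes (19 of 32 higher, median 0.05) had Npy2r, a presynaptic neuropeptide Y receptor, at 0.64 ± 0.34 and Sstr2, a somatostatin receptor, at -0.31 ± 0.18. Monoamine, acetylcholine and G-protein signalling genes (23 of 43 higher, median 0.02) had Htr2c, a serotonin receptor that choroid plexus and neurons share, at 0.59 ± 0.28 and Rgs16 at 0.39 ± 0.23.

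Marker lists of choroid plexus and meninges had their highest levels in single animals. Of 20 tested choroid plexus genes 16 were higher in iTBS animals (80%, median 0.41). Ttr (NM_012681), the carrier of thyroxine that choroid plexus makes in large amounts, had 5.02, 6.20, 7.75 and 7.42 in sham and 8.30, 11.08, 6.13, 5.03 and 6.57 in iTBS animals. AU_iTBS 2 was far above all others, and the median of the list without it was 0.04. Enpp2 (NM_057104), the lysophospholipase autotaxin of choroid plexus and oligodendrocytes, was the list's member at an unadjusted p under 0.05, with 5.76, 5.68, 5.31 and 5.00 in sham and 6.40, 6.73, 5.48, 5.56 and 5.73 in iTBS animals. Trpv4, a cation channel, differed by 0.49 ± 0.26. Of 20 meningeal and fibroblast genes 16 were higher (median 0.21), and the level of the list was 0.63 in AU_iTBS 5 against -0.34 to 0.17 in the other 8 animals. Aspn differed by -1.11 ± 0.55 and Col5a1 by 0.33 ± 0.20. Of 26 genes of cortex, striatum and thalamus 14 were higher (median 0.05). Of 18 ependymal genes 12 were lower (median -0.06), with Spata18 at -0.38 ± 0.21 and Spag6 at 0.33 ± 0.33.

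Glial and vascular lists were near the median of all probes. Myelin and oligodendrocyte genes were higher in 20 of 28 members (median 0.06), with Enpp2, named above, as the member at an unadjusted p under 0.05, Aspa at 0.25 ± 0.14 and the defining gene Mbp at -0.05. Of 27 astrocyte genes 14 were higher (median 0.01). Glul, glutamine synthetase, had 6.74, 7.32, 7.00 and 7.48 in sham and 6.98, 6.77, 7.03, 6.88 and 7.02 in iTBS animals, and Serpina3n, a gene of reactive astrocytes, differed by 0.52 ± 0.35. Of 32 endothelial and mural genes 19 were lower (median -0.10). Pecam1 (NM_031591), an adhesion molecule of endothelium, was at an unadjusted p under 0.05, with 3.54, 3.52, 3.22 and 3.75 in sham and 3.23, 3.43, 3.00, 3.20 and 3.33 in iTBS animals and a difference of -0.27 ± 0.10. Kdr, the main receptor for vascular endothelial growth factor, differed by 0.25 ± 0.14 in the other direction. Of 16 haemoglobin and haem genes, which follow the blood left in the tissue, 12 were lower (median -0.09), with Alas2 at -0.37 ± 0.25 and Hbg1 at -0.31 ± 0.22.

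Genes of energy metabolism, protein synthesis and protein turnover had medians near that of all probes when all animals were used. Of 71 oxidative phosphorylation genes 36 were higher (median 0.00), with Cox7b at 0.15 ± 0.11 and Sdhb at -0.11 ± 0.08. Of 77 cytoplasmic ribosomal protein genes 38 were higher (median -0.00), with Rps7 at 0.28 ± 0.21 and Rpl23a at 0.23 ± 0.16, and of 32 proteasome genes 15 were higher (median -0.01), with Psma3 at 0.22 ± 0.16 and Psma6 at 0.21 ± 0.17. The medians depended on slide and scan batch. For the ribosomal list it was -0.19 within the first batch, 0.32 within the later batch and 0.29 with the slide as a block, and for oxidative phosphorylation -0.13, 0.20 and 0.19. None of these genes was at an unadjusted p under 0.05. The same held for heat shock and chaperone genes (15 of 29 higher, median 0.01, Hsph1 at -0.20 ± 0.11 and Fkbp4 at -0.26 ± 0.15) and for glucocorticoid receptor targets (9 of 19 higher, median -0.01, Plin4 at -0.35 ± 0.17 and Cdkn1a at -0.41 ± 0.27). It also held for circadian clock genes (11 of 18 higher, median 0.02, Nfil3 at -0.33 ± 0.17 and Nr1d2 at 0.23 ± 0.14). Alzheimer-linked genes were higher in 13 of 27 (median -0.02), with Plcg2 at 0.26 ± 0.14 and Aplp1 at -0.27 ± 0.18, and hippocampal field genes in 12 of 32 (median -0.07), with Rgs14 at -0.20 ± 0.13 and Htr5b at -0.25 ± 0.16. The value of Htr5b in AU_iTBS 1 was left out because its spot was an outlier. Of 38 tested genes that the study had displayed for its stimulated animals, 23 were higher (median 0.05) and none was at an unadjusted p under 0.05. As that list was picked on animals that included these, it is not independent evidence.

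**Figure D5:**
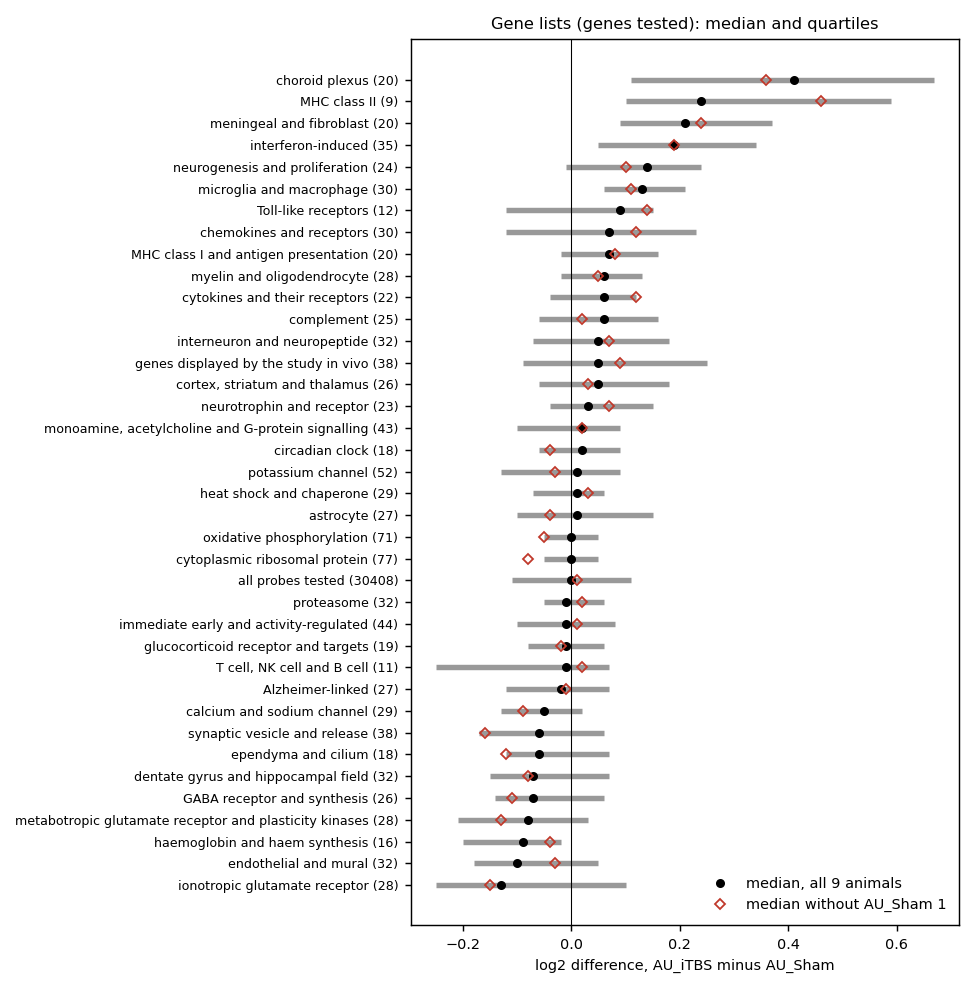
Median (black circle) and quartiles (grey bar) of the difference AU_iTBS minus AU_Sham (horizontal axis, log2) for 37 gene lists and for all probes tested, with the number of tested genes in brackets. Red diamonds give the median without AU_Sham 1. Choroid plexus (0.41), MHC class II (0.24), meningeal (0.21) and interferon-induced genes (0.19) have the highest medians, and ionotropic glutamate receptor genes (-0.13) the lowest.

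The selection rule of the study, applied to these 9 animals, gave 13 of 45208 probes (0.0288%), 10 higher (0.0221%) and 3 lower (0.00664%). It combines an analysis of variance and a normal test of the z-scores, both at 0.05, with a false discovery limit of 0.3, a ratio of z-scores beyond 1.5 and a mean signal above 0. None of the 13 passed the limma test, where each had an adjusted p of 1. By name it gave Apoc1, Rtp4, Isg15, Mest, Gpr15lg and Casr as higher and Tpm2 and Or2b11 as lower. Apoc1 (NM_012824), an apolipoprotein of macrophages and astrocytes, had 5.46, 5.70, 4.74 and 4.61 in sham and 6.00, 5.80, 5.72, 5.59 and 5.62 in iTBS animals, a difference of 0.61 ± 0.23. AU_Sham 3 and 4 were the low animals. Rtp4, an interferon-induced chaperone of receptors, differed by 0.50 ± 0.25, Mest, an imprinted gene, by 0.49 ± 0.18 and Casr, the calcium-sensing receptor, by 0.65 ± 0.28.

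The AU effect was also set against that in impaired rats and in cortex. For AU minus AI 0 of 30408 probes (0%) were called and 467 (1.54%) were at an unadjusted p under 0.05. For AU hippocampus minus the cortex of the same animals, tested on the difference within each animal, 0 were called and 1560 (5.13%) were at an unadjusted p under 0.05. Of the 16 genes of smallest p above, 11 differed from Y, 11 from AI and 5 from cortex at an unadjusted p under 0.05, and none at an adjusted p under 0.05 (smallest 0.709). These genes were chosen for a small p in AU hippocampus, which these comparisons share.

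No meningeal or fibroblast gene passed the adjusted threshold for a difference in effect between the regions. The hippocampus minus cortex effect was at an unadjusted p under 0.05 for 10 of 20 genes, all more positive in hippocampus, beside 2.27% of all probes, and the median was 0.83. In cortex 1 of 20 had a higher mean in iTBS animals, whatever its p (median -0.78). At an unadjusted p under 0.05, 8 were lower and 0 higher in cortex, beside 3.05% and 3.97% of all probes. Col1a1 (NM_053304), a fibrillar collagen of meningeal fibroblasts, had 2.49, 2.66, 2.96 and 4.46 in sham cortex and 1.25, 2.40, 0.39, 0.27 and 3.47 in iTBS cortex. In hippocampus it had 1.29, 0.77, 0.46 and 0.53 in sham and 1.35, 1.47, 1.26, 0.60 and 1.76 in iTBS animals. Its difference between the regions was 2.11 ± 0.63 (unadjusted p = 0.0031, limma adjusted p = 0.71), and it is named here after its value was seen. Leaving out any 1 animal gave 6 to 12 of the 20 genes, with 6 (beside 0.832% of all probes) without AU_Sham 4 and 12 (beside 4.14%) without AU_Sham 1. Against AI animals 7 of 20 were more positive in AU at an unadjusted p under 0.05, beside 0.901% of all probes, and the count was 4 to 9 with 1 AU animal left out. In AI hippocampus none of the 20 was higher in iTBS animals (median -0.50). Ribosomal protein genes, at a median of -0.00 in hippocampus, had -0.35 in cortex with 25 of 77 lower at an unadjusted p under 0.05, beside 3.05% of all probes, and 9 of 77 differed between the regions, beside 2.27% of all probes. That count was 51 without AU_iTBS 4 (beside 8.71%), 2 without AU_Sham 3 or without AU_iTBS 2, and 0 under scaling to the 75th percentile.

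Microglial genes were more positive in hippocampus than in cortex for 6 of 30 members at an unadjusted p under 0.05, beside 2.27% of all probes. The median difference of effects was 0.37, and none had an adjusted p under 0.05. The list median was 0.13 in hippocampus and -0.22 in cortex. In cortex 9 of 30 were higher in iTBS animals, whatever their p, and 3 were lower at an unadjusted p under 0.05, beside 3.05% of all probes. The 6 genes that differed between the regions, named here after their values were seen, included Clec7a (0.72 in hippocampus, -0.25 in cortex). Lgals3, the galectin of phagocytes, was another (0.49 and -1.23). For Lgals3, AU_iTBS 5 at 5.25 stood above the other 8 hippocampus values of 3.29 to 4.02, and the meningeal level was highest in the same animal, whose part in this value was not tested.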

How the data were processed

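RNA of each animal was labelled with Cy3 and hybridized to an Agilent rat array of 62976 features. The deposited scanner files hold intensity values per spot, which the authors made with Feature Extraction 12.0.3.1 (background-subtracted processed signal, per the file headers). The authors also deposited a table of z-scores, a score centred on the mean of each array, which differed from the z-scores computed here by at most 0.0050. Control spots and outlier spots (370 to 723 per array) were left out and spots of a probe averaged. Of 45598 probes, 46.3% had a symbol in the RefSeq tables. The log2 processed signal was z-scored per array and rescaled by 4.08, the SD averaged over arrays. Probes well above background on at least 3 of the 9 arrays (30408) were tested with limma 3.58.1 in R 4.3.3, fitted to the 24 first hippocampus arrays with 6 group means (18 residual and 2.72 prior degrees of freedom), with Benjamini-Hochberg adjustment over all of them and a threshold of 0.05. The contrast between regions used differences within each animal. The script was tested on simulated data. Python 3.11.15, pandas 2.3.3, numpy 2.4.6 and scipy 1.17.1 were used for summaries. The number of arrays limits the precision.

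Groups came from the sample titles. Technical repeat arrays entered only as an alternative, and 1 array whose title and description name different animals entered no comparison. Named genes were the probe of smallest p, the 8 genes of smallest p in each direction, the genes of smallest p in each list, and defining members of the lists. A few of these genes are not reported here, though they count in the totals of their lists. The members and the 37 gene lists (1240 entries, 1171 distinct genes, 1030 tested) were chosen with earlier results of these data known. Alternatives were the 75th percentile or quantile normalization, normexp background correction (offset 50), the deposited z-scores, other filters, the scan batch, scan day, slide or replicate number as a block, the 9 arrays alone, and each animal left out. As the files used here hold no mean spot intensity, normexp used the median.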

Additional observations from a re-analysis of the deposited data

Results flagged for a closer look

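Single animals lay far from the rest of their group in 13 of 241 groups of values examined. Chance gives about 1 in 20, which is near that share, so nothing is read from the count. AU_iTBS 2 had the most such values. It had a Cxcl10 level of 3.22 against -0.23 to 0.42 in the other iTBS animals, a Trpv4 level of 1.62 against -0.07 to 0.29, an Epm2a level of -2.77 against -2.04 to -1.75 and an Sdhb level of 7.09 against 6.94 to 6.98. Its choroid plexus list stood at 1.71 against -0.55 to 0.08. AU_Sham 1 had a Cacng2 level of 6.81 against 7.32 to 7.38 in the other sham animals, a synaptic vesicle list at -0.20 against 0.13 to 0.17, a GABA list at -0.18 against 0.07 to 0.10 and a Toll-like receptor list at 0.16 against -0.13 to -0.09. AU_Sham 4 had an Nkg7 level of -0.22 against -1.48 to -1.31 and an Slc6a11 level of -0.34 against -1.13 to -1.04. The Hbg1 level of AU_Sham 2 was -1.65 against -2.56 to -2.46. The Rgs16 level of AU_iTBS 3 was 0.44 against -0.98 to -0.57.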

How the results depend on the processing

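No probe was called for AU_iTBS against AU_Sham hippocampus under any alternative run over the whole table, except that 72 were called among later-scanned animals, where AU_Sham 1 was the lone control and was assumed to vary like the other groups, and that the selection rule of the study gave 13. The count at an unadjusted p under 0.05, 655 as reported, was 335 with a mean z-score above 0, 1130 with no filter on dim probes, 1839 within the first scan batch and 2587 within the later batch. It was 2110 with the slide as a block. In that fit AU_iTBS 3 had no partner, and AU_Sham 1 against AU_iTBS 1 and 2 was the only AU comparison within a slide. The count ran from 458 to 3194 with 1 animal left out. The causes were not tested. For AU minus AI, 2 probes were called with no filter on dim probes.

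Replicate numbers name different animals. The deviations of same-numbered sham and iTBS animals correlated at -0.02, -0.00, -0.10 and -0.02, and 0 of 4 sham animals lay closest to its own number. With the replicate block the count at an unadjusted p under 0.05 was 1192, and no probe was called.

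Of 2027 values for 83 genes, 1994 kept their direction and 33 reversed, in 25 genes. With the slide as a block the reversed values were Nkg7 0.04, Dusp14 0.10, Cdkn1a 0.20, Spag6 -0.17, Cacnb3 0.01, Aplp1 0.04 and Sdhb 0.07. Within the first scan batch they were Rps7 -0.16, Cox7b -0.05 and Psma6 -0.04. Within the later batch they were Tap1 -0.15, Ifit2 -0.02, Gpnmb -0.13, Aspa -0.17, Glul 0.19, Serpina3n -0.26, Dusp14 0.07, Cacng2 0.15, Npy2r -0.00, Cdk1 -0.25, Cdkn1a 0.66, Spag6 -0.28, Kdr -0.17, Rgs14 0.01, Htr5b 0.03, Cacna1e 0.30, Cacnb3 0.32, Plcg2 -0.06, Aplp1 0.28, Sdhb 0.07 and Psma3 -0.02. Of 925 list medians 37 moved by more than the spread between animals, nearly all of them with the slide as a block or within 1 scan batch. With 1 animal left out Spag6 ran from -0.04 to 0.53 and Cacna1e from -0.53 to 0.01. The scan day block and the list counts without single animals were chosen after seeing the data.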
